A study of Mus musculus with 2 samples.

Results

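Nonclassical patrolling monocytes were taken from 2 droplet libraries of liver nonparenchymal cells (the immune, endothelial and other cells besides hepatocytes), in which RNA molecules were counted per cell as unique molecular identifiers (UMIs). A barcode was a member if it passed 500 UMIs and at most 20% mitochondrial UMIs, held at least 4 UMIs of Ace, Treml4, Eno3, Ear2 and Adgre4 together, at most 2 UMIs of the classical monocyte genes Ly6c2, Chil3, Vcan and F13a1, at most 2 of the macrophage genes Gpnmb, Trem2, Ms4a7 and C3ar1, and 0 of Retnlg, Clec4f, Cd79a and Cd3e. The rule found 214 members among 10000 barcodes, of which 9146 passed the filters on UMIs and mitochondrial share. The yap1 library gave 102 members and the WT library 112. The yap1 library came from Yap1 flox/flox mice with Lyz2-Cre, in which Cre expressed from the lysozyme 2 locus of myeloid cells recombines Yap1, a transcriptional coactivator of the Hippo pathway, and the WT library from wild-type mice. All mice were C57BL/6 and were given carbon tetrachloride (CCl4), a hepatotoxin used to induce liver fibrosis, 4 times. The labels describe each library as coming from 3 mice, which cannot be told apart in it. The age of the mice and the floxed part of Yap1 are not given in the sources used here.

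Nonclassical monocytes are the Ly6C-low monocytes of mouse blood. They arise largely from classical Ly6C-high monocytes, depend on the nuclear receptor Nr4a1 and on signalling through the CSF1 receptor, and crawl along the luminal face of small vessels by means of the integrin LFA-1 (Itgal and Itgb2) and the fractalkine receptor Cx3cr1. Classical monocytes carry Ccr2 and enter injured tissue, where they can become macrophages.

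With 1 library per genotype there is no replicate check and no test. Levels are counts per 1000000 UMIs of the summed members (CPM), and ratios are yap1 over WT unless another pair is named. Intervals are at 95% and reflect counting error alone. A gene was compared if it had at least 50 UMIs over both sums, and was counted as higher or lower from 1.5-fold on. The members summed to 904951 UMIs in the yap1 library (median 7232.5 per cell, 1518 to 25359) and 793920 in the WT library (median 6020.5, 699 to 22606). The libraries differed in depth as a whole, with medians of 5252 and 4101 UMIs per passing barcode in yap1 and WT. They shared 5 barcodes, none of them a member.

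Of the rule markers themselves, members held 428 CPM of Ace (angiotensin-converting enzyme) in yap1 and 364 in WT, 344 and 311 of Treml4, 479 and 430 of Eno3, 491 and 339 of Ear2 (38.1% of the words at its transcript end shared with other genes), and 477 and 460 of Adgre4, all given as values that chose the cells. The label was checked with 20 genes of nonclassical monocytes that the rule did not use, among them Nr4a1, Spn, Itgal, Fcgr4 and Cd300e. Members held a median of 142 UMIs of these genes per 10000 in the yap1 library and 133 in the WT library. Classical monocytes, chosen by the mirrored rule on Ly6c2, Chil3, Vcan and F13a1 and with at most 2 UMIs of defining markers of other cell types (53 yap1 and 85 WT cells), held 32.2 in yap1 and 33.5 in WT. The rule and these genes are read from the same cells, so this is a description. Of the 102 yap1 members, 51 had UMIs of all 5 rule markers and 7 of only 1 marker, against 40 and 14 of the 112 WT members. Markers of T cells, NK cells, mesenchymal and erythroid cells reached 3 UMIs in no member of either library. Other lists did so more often, namely the neutrophil list in 50 of 102 yap1 and 53 of 112 WT members, the endothelial list in 45.1% of yap1 and 45.5% of WT members, the full Kupffer cell list in 18.6% and 24.1%, the hepatocyte list in 18.6% and 11.6%, and the plasmacytoid dendritic cell list in 15.7% and 5.36%. In classical monocytes, which were deeper (median 13844 and 11212 UMIs), the neutrophil list did so in 64.2% of yap1 and 63.5% of WT cells. The endothelial list did so in 47.2% and 41.2%, the hepatocyte list in 37.7% and 49.4%, and the plasmacytoid dendritic cell list in 41.5% and 34.1%. The full Kupffer cell list did so in 3.77% and 5.88% of them. The part of these lists in the results was not tested. The summed level of 11 neutrophil genes was 374 CPM in yap1 and 537 in WT members, and that of 11 endothelial genes 305 and 457.

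A minority of members went against the label. In the yap1 library 15 members, and in the WT library 11, held at least 3 UMIs of Ccr7, Fscn1 and Flt3, genes of migratory and conventional dendritic cells. Their median was 37.0 UMIs of the 20 nonclassical genes per 10000 in yap1 and 30.7 in WT, at the level of classical monocytes, against 147 and 141 in the other yap1 and WT members. They had entered mainly through Eno3, the muscle form of enolase, which gave 62.1% of their marker UMIs in yap1 and 78.2% in WT, and it was the only marker in 5 of them in each library. They were also deeper, with median UMIs of 12612 in yap1 and 9633 in WT, against 6628 and 5492 in the other members. Per cell they thus weighed more in the summed counts. The WT ones held 0 UMIs of Ace and Treml4. They carried 863 of the 874 UMIs of the chemokine Ccl5 in the yap1 members and 1043 of 1055 in the WT members. In addition, 2 yap1 and 5 WT members held at least 3 UMIs of Kupffer cell genes, and the 5 WT cells carried 166 of the 174 UMIs of Cd5l and 89 of the 97 of Marco. Values without these cells are given beside the lists and genes that moved most with them. Shares and medians over all genes are given for all members only, so list values without these cells have no such background. Both sets were defined after the data had been seen. Outside both sets, other members also held few nonclassical UMIs. Among them were yap1 members at 35.8 and 32.4 per 10000 and WT members at 11.9, 23.2, 34.6, 34.9, 38.6 and 48.2. Such cells remain in the values without marked members, and their part was not tested.

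**Figure D1:**
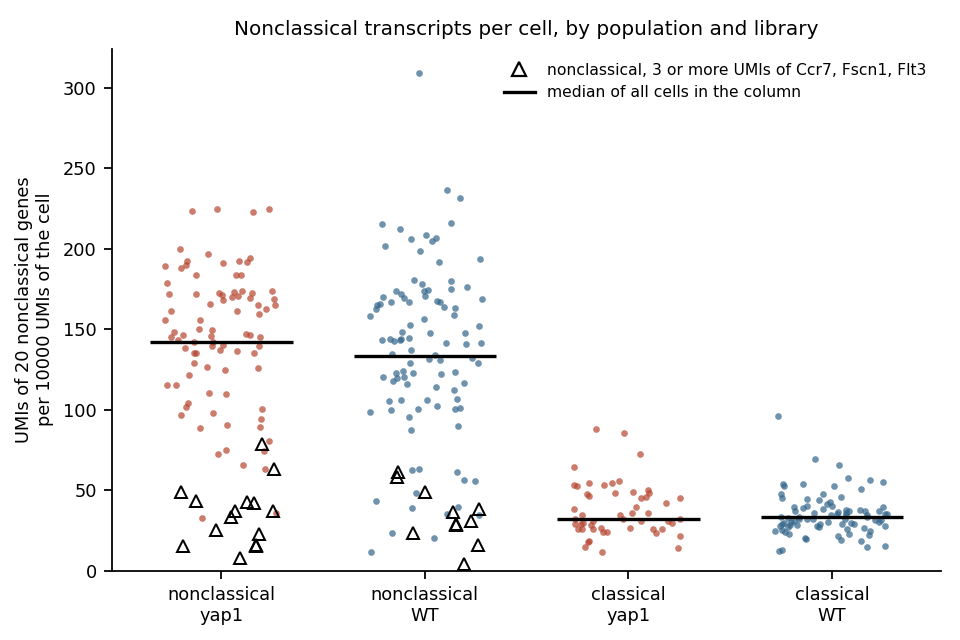
UMIs of 20 nonclassical monocyte genes per 10000 UMIs of each cell (y axis) in nonclassical and classical monocytes of the yap1 and WT libraries; each point is a cell and each line a median. Members with dendritic cell markers are drawn as triangles, with medians of 37.0 in yap1 and 30.7 in WT, while the medians of all members stand at 142 in yap1 and 133 in WT.

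At the edge of the rule, 6 yap1 and 15 WT members held exactly 4 marker UMIs, with medians of 36.5 and 48.2 nonclassical UMIs per 10000. Just outside, 11 yap1 and 22 WT barcodes with 3 marker UMIs met every other criterion, with medians of 25.4 and 53.7. A further 61 yap1 and 60 WT barcodes had enough nonclassical markers but more than 2 UMIs of classical markers. These stood between the populations, at 84.7 in yap1 and 89.4 in WT. The members' own median was 16 marker UMIs in yap1 and 12 in WT.

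Nonclassical monocytes were about equally frequent in both libraries. They made up 2.40% (1.96 to 2.90%, Clopper-Pearson) of the passing yap1 barcodes and 2.29% (1.89 to 2.75%) of the WT barcodes, a ratio of 1.05 (0.804 to 1.37). Classical monocytes made up 1.25% in yap1 and 1.74% in WT, a ratio of 0.717 (0.510 to 1.01). There were thus 1.92 nonclassical cells per classical cell in yap1 and 1.32 in WT, a ratio of 1.46 (0.924 to 2.31). The intervals of all 3 ratios include 1. When each barcode was thinned to 2000 UMIs before the rules were applied, the last ratio was 0.889, with 190 yap1 and 187 WT cells counted as classical at that depth. The share of nonclassical monocytes was then 2.28% in both libraries.

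Relative to classical monocytes of the same library, members had 554 genes higher in both libraries (14.5% of 3825 compared, rule genes left out) and 333 lower (8.71%). The median log2 ratio over all these genes was 0.04 in yap1 and 0.07 in WT. Of the 20 nonclassical genes, 18 were higher and 0 lower, with median log2 ratios of 2.55 in yap1 and 2.85 in WT. Cells of both populations were chosen on marker counts, so these values describe the populations and are not tests. Levels within nonclassical monocytes were close between genotypes for most of these genes.

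A surface receptor and a transporter were among the genes with wide gaps. Cd300e (ENSMUSG00000048498, chromosome 11, 115051917 to 115062177, mm10), an activating receptor of myeloid cells, stood at 445 CPM in the yap1 library and 412 CPM in the WT library, with 0 UMIs in yap1 and 1 UMI in WT classical monocytes. The yap1 difference is at least 100.2-fold, taking 0 UMIs in the classical sum as up to 3. Cd300e UMIs were found in 71.6% of yap1 and 66.1% of WT members, and in 0.734% of yap1 and 0.889% of WT B cells, which should lack it, at median depths of 4469.5 and 3710.5 UMIs. After thinning to 2000 UMIs, the shares were 51.0% of yap1 and 44.5% of WT members and 0.317% of yap1 and 0.226% of WT B cells. Slc12a2, a sodium, potassium and chloride cotransporter, was at 136 CPM in the yap1 library and 136 CPM in the WT library and had 0 UMIs in classical monocytes of both, at least 30.6-fold higher in yap1 and 38.6-fold in WT. Both genes were thus found in nonclassical monocytes at like levels in the 2 genotypes and hardly at all in classical ones. Cd300e was not confined to them, since Clec4f-positive Kupffer cells held 171 and 181 CPM in yap1 and WT.

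Adhesion and trafficking genes followed. Of 21 compared, 11 were higher than in classical monocytes and 3 lower, with median log2 ratios of 0.68 in yap1 and 1.0 in WT. Among all genes 14.5% were higher and 8.71% lower. Itgax (CD11c) was at 222 and 185 CPM in yap1 and WT nonclassical monocytes, 50.0 (16.9 to 244) times the classical level in yap1 and 31.5 (13.2 to 98.5) times in WT. The size of this ratio depended on which cells counted as classical, and over the alternatives it lay between 3.52 and 144 in yap1 and between 3.95 and 38.2 in WT, lowest with the mirrored rule alone. Pecam1 (CD31), an adhesion molecule also abundant on endothelium, was at 165 and 183 CPM, with ratios to classical of 22.2 and 14.1. Over the alternatives its ratio lay between 2.76 and 30.2 in yap1 and between 2.24 and 16.3 in WT. Itgal, the alpha chain of LFA-1, was the most abundant of these integrin chains, at 938 and 919 CPM in yap1 and WT, and its ratios were 4.28 and 5.63. Its partner Itgb2 stood at 827 and 747 CPM. S1pr5, a sphingosine 1-phosphate receptor, was at 70.7 and 74.3 CPM, with ratios of 47.7 and 21.1. Both rest on classical levels no higher than that of 3 UMIs, so their size is uncertain. In classical monocytes 3 UMIs are 4.44 CPM in yap1 and 3.53 CPM in WT. Cx3cr1, a usual marker of nonclassical monocytes, separated the populations much less, at 201 and 189 CPM and ratios of 1.48 and 2.06. Spn (CD43), which flow cytometry uses to mark these cells, was at 397 and 385 CPM, with ratios of 7.88 and 14.9. CPM are not scaled to transcript length, and comparisons between genes are of UMI numbers only.

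Among transcription factors and survival genes, 7 of 21 lineage factors were higher than in classical monocytes and 3 lower, and 5 of 14 growth and survival genes were higher and 1 lower, beside 14.5% higher and 8.71% lower among all genes. Nr4a1 (ENSMUSG00000023034, chromosome 15, 101254269 to 101274795), on which these cells depend, stood at 1448 CPM in the yap1 library and 1397 CPM in the WT library, 1.77 (1.60 to 1.96) times the classical level in yap1 and 2.00 (1.81 to 2.22) times in WT. Nr4a1 is also an immediate early gene, and B cells held 769 and 673 CPM in yap1 and WT. Larger ratios were shown by Hes1, a target of Notch signalling (15 in yap1 and 14.6 in WT), by Tcf7l2, a Wnt pathway factor (11.6 and 12.4), and by the nuclear receptors Nr1h3, the liver X receptor alpha (16.7 and 23.8), and Pparg (30.6 and 45). Over the alternatives Hes1 lay between 5.92 and 19.3 in yap1 and between 5.36 and 30.1 in WT. Nr1h3 lay between 6.12 and 25.5 in yap1 and between 6.03 and 31.9 in WT, and had 8 and 6 UMIs in classical monocytes. Pou2f2 was 3.30 and 3.81 times higher. Csf1r, the CSF1 receptor, was at 879 and 912 CPM, with ratios of 1.74 and 1.85. The antiapoptotic genes Bcl2a1a, Bcl2a1b and Bcl2a1d were between 19.8 and 35.9 times higher. Over the alternatives their ratios lay between 5.62 and 87.9. Their transcript ends share 66.7%, 86.9% and 87.8% of 50-base words with other genes, so UMIs cannot be assigned to 1 of them with certainty. Traf1, a TNF receptor adaptor, was 14.0 and 12.9 times higher, and Serpinb6a, a protease inhibitor, 36.9 and 16.2 times. Over the alternatives Traf1 lay between 3.89 and 18.0 in yap1 and between 5.27 and 13.9 in WT. Serpinb6a lay between 5.28 and 48.4 in yap1 and between 11.1 and 25.4 in WT.

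Fc receptors and lipid genes also distinguished the cells. Fcgr4, an activating receptor for IgG, was at 904 CPM in the yap1 library and 952 CPM in the WT library, 9.84 and 15.6 times the classical level, while Fcgr1, the high-affinity receptor, was lower, at 36.5 and 52.9 CPM, with ratios of 0.205 and 0.469. Fabp4, a fatty acid-binding protein, was at 328 and 439.6 CPM, with 0 UMIs in yap1 classical monocytes and 3 in WT ones. Cd36, a scavenger receptor, was at 156 and 171 CPM, against 13.3 and 0 CPM in classical monocytes of yap1 and WT. Its yap1 ratio to classical lay between 1.53 and 103 over the alternatives. Of 14 scavenger and lipid genes compared, 8 were higher and 2 lower, beside 14.5% higher and 8.71% lower among all genes. Among other genes, Ccl5, Ccr7 and Tbc1d4 also ranked high, but 863 and 1043 of the Ccl5 UMIs, 372 of 377 and 325 of 325 of the Ccr7 UMIs, and 162 of 186 and 132 of 135 of the Tbc1d4 UMIs in yap1 and WT lay in the members with dendritic cell markers.

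Genes of classical monocytes were low in the members, 13 of 15 past 1.5-fold in both libraries, beside 8.71% of all genes. Mmp8, a collagenase, had 0 UMIs in the members of both libraries and 185 and 263 CPM in yap1 and WT classical monocytes, which makes it at least 55.9-fold lower in yap1 and 69.7-fold in WT. Ccr2, the receptor for recruitment from marrow, stood at 172 and 183 CPM in yap1 and WT, 0.172 and 0.175 of the classical level. The 3 members with most Ccr2 held 37.2% of its UMIs in yap1 and 52.4% in WT. Thbs1 (thrombospondin), Fn1 (fibronectin), S100a10, Slpi, Hopx, Ccr1 and Slfn1 were between 0.0479 and 0.141 of the classical level. Interferon-stimulated genes were lower in 7 of 12 compared, beside 8.71% of all genes, with median log2 ratios of -0.98 in yap1 and -0.99 in WT. Ifitm3, a membrane protein that restricts viral entry, stood at 0.464 and 0.523 of the classical level.

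**Figure D2:**
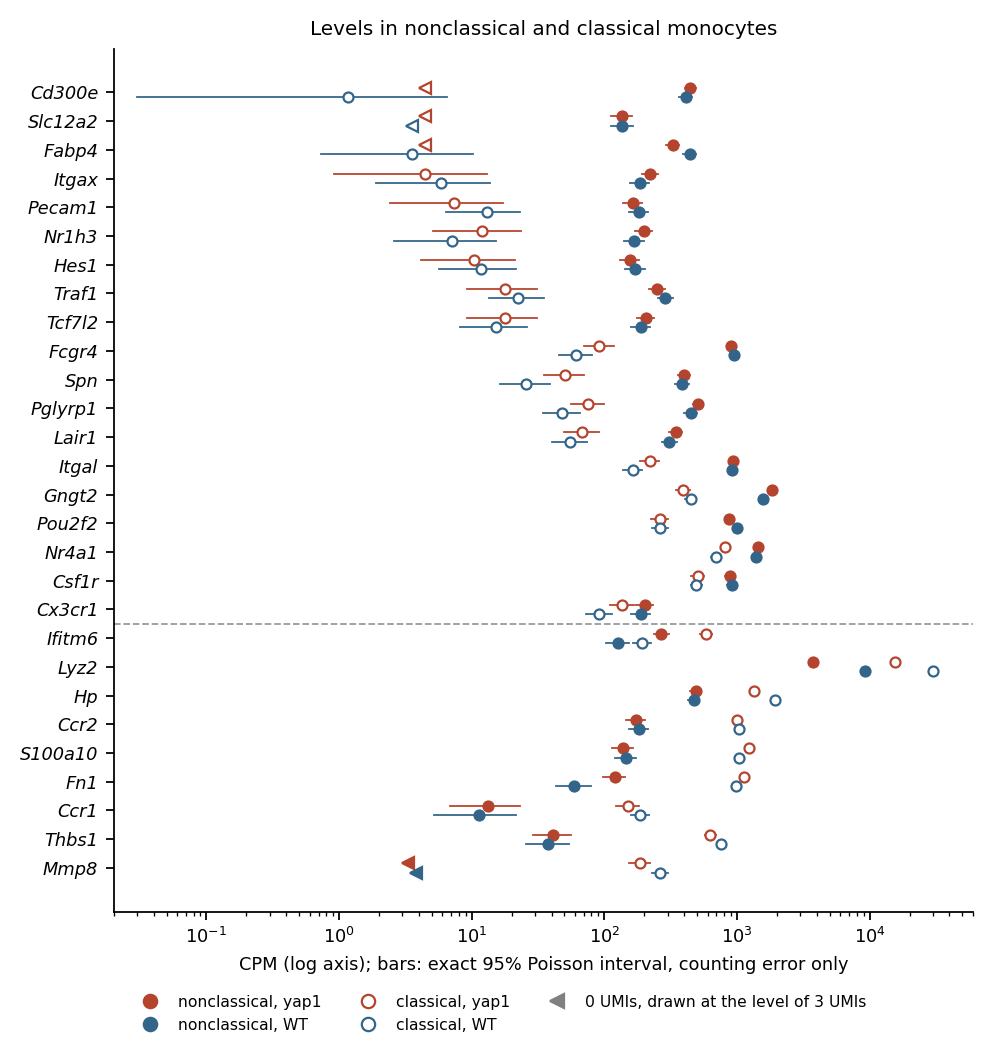
CPM of 28 genes (log axis, bars exact 95% Poisson intervals) in nonclassical (filled) and classical (open) monocytes of the yap1 and WT libraries. Above the dashed line nonclassical monocytes exceed classical ones, from Cd300e and Slc12a2 at the top to Cx3cr1, and below it the order is turned; within nonclassical monocytes the yap1 and WT points lie close except for Lyz2, Ifitm6 and Fn1.

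The targeted gene could not be assessed in these cells. Yap1 (ENSMUSG00000053110, chromosome 9, 7931999 to 8004596) had 0 UMIs in yap1 and 1 in WT members, and its paralogue Wwtr1 (TAZ) likewise 0 in yap1 and 1 in WT. A count of 0 in the yap1 sum allows up to 3.32 CPM, against 1.26 CPM for the WT UMI, so the depth could not show a difference. Lyz2 (ENSMUSG00000069516, chromosome 10, 117277331 to 117282321), the locus that carries Cre, was lower in the yap1 members, at 3737 CPM in the yap1 library and 9215 CPM in the WT library, a ratio of 0.406 (0.389 to 0.422). Its ratio was 0.518 in classical monocytes, 0.484 in Gpnmb- and Trem2-positive macrophages, 0.427 in Clec4f-positive Kupffer cells and 1.25 in B cells. Over 14 alternative settings the ratio in nonclassical monocytes lay between 0.382 and 0.464. The Cre insertion at Lyz2 and the floxed Yap1 allele come together in the yap1 mice and cannot be told apart. Lyz1, the neighbouring lysozyme gene, had 9 UMIs in yap1 and 0 in WT members.

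**Figure D3:**
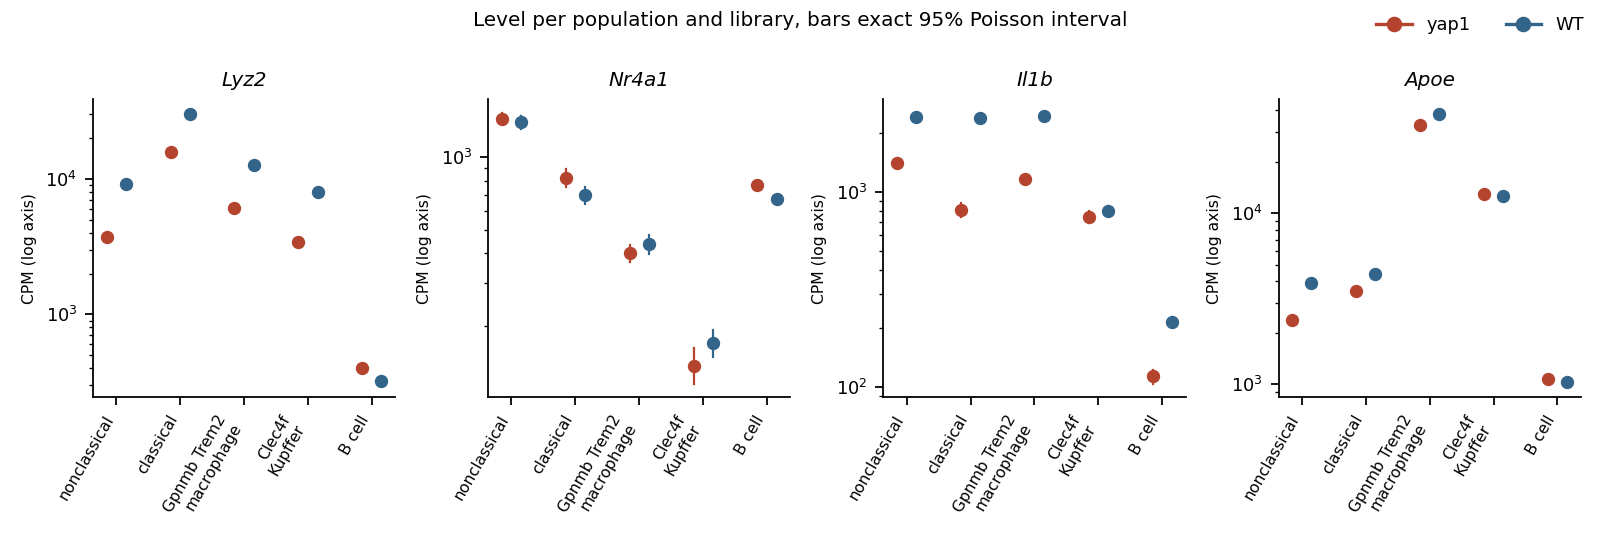
CPM of Lyz2, Nr4a1, Il1b and Apoe (log axis, bars exact 95% Poisson intervals) in nonclassical and classical monocytes, macrophages, Kupffer cells and B cells, with yap1 left of WT. Lyz2 is lower in yap1 in all 4 myeloid populations, Nr4a1 differs little between genotypes in nonclassical monocytes, Il1b is lower in yap1 in every population drawn, and Apoe is lower in yap1 in both monocyte populations.

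Between genotypes, 169 of 4253 genes (3.97%) were higher and 304 (7.15%) lower in yap1 members at 1.5-fold or more, 11.1% in either direction. The median log2 ratio was -0.04, with 1891 genes higher and 2362 lower at any size. These sums include the members with dendritic cell markers. Without those members, the counts of genes higher and lower each stayed within a factor of 1.5 of the values above. Genes of nonclassical identity differed little. Of the 20 nonclassical genes 0 were past 1.5-fold in either direction, the median log2 ratio was 0.02, and their summed level was 11332 CPM in yap1 and 11242 in WT. Nr4a1 had a ratio of 1.04 (0.956 to 1.12), Csf1r 0.963 (0.870 to 1.07), Spn 1.03 (0.881 to 1.20), Itgal 1.02 (0.923 to 1.13), Fcgr4 0.949 (0.859 to 1.05), Cx3cr1 1.06 (0.853 to 1.33) and Cd36 0.910 (0.714 to 1.16). Without the members with dendritic cell markers, the list's median log2 ratio was 0.17 and Nr4a1's ratio 1.16 (1.06 to 1.26).

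Lineage transcription factors gave 7 higher and 14 lower of 21, with a median log2 ratio of -0.09. Of them 0 and 2 were past 1.5-fold, beside 3.97% and 7.15% of all genes. Without the members with dendritic cell markers the direction turned, with 11 higher and 9 lower of 20, 0 and 1 past 1.5-fold, and a median log2 ratio of 0.02. Cebpb, a factor on which Ly6C-low monocytes depend, was at 3536 CPM in the yap1 library and 3761 CPM in the WT library, a ratio of 0.940 (0.894 to 0.989). Klf2 and Klf4 had ratios of 0.960 and 0.955, Spi1 (PU.1) 1.01 and Irf8 1.18. Among those past the threshold was Nr4a3, at 85.1 CPM in yap1 and 207 CPM in WT (ratio 0.412, interval 0.310 to 0.543). Of the Nr4a3 UMIs 60 of 77 in yap1 and 132 of 164 in WT came from members with dendritic cell markers, and without them its ratio was 0.528 (0.275 to 0.979). Adhesion genes gave 11 higher and 9 lower of 20, with a median log2 ratio of 0.02. The only one past 1.5-fold was Itgb7, a chain of gut-homing integrins, at 129 CPM in yap1 and 73.1 CPM in WT (ratio 1.77, interval 1.28 to 2.47).

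Inflammatory genes were mostly lower in yap1 members. Of 28 listed, 15 could be compared, 10 were lower and 5 higher, and 6 were lower and 1 higher at 1.5-fold or more, beside 7.15% lower and 3.97% higher among all genes. The median log2 ratio was -0.42, against -0.04 over all genes. Il1b, the cytokine interleukin 1 beta, was at 1411 CPM in the yap1 library and 2417 CPM in the WT library (ratio 0.584, interval 0.543 to 0.627). The chemokine Cxcl2, which draws neutrophils, was at 536 CPM in yap1 and 903 CPM in WT (ratio 0.593, interval 0.528 to 0.667), and Ccl3 at 149 CPM in yap1 and 326 CPM in WT (ratio 0.457, interval 0.369 to 0.565). Il1b was found in 90.2% of yap1 and 86.6% of WT members and in 12.8% of yap1 and 15.3% of WT B cells (67.0% of yap1 and 79.1% of WT members and 6.77% of yap1 and 8.21% of WT B cells after thinning to 2000 UMIs). Ccl3 was uneven, with 59.8% of its WT UMIs in 3 cells and a ratio of 0.767 without the 3 highest members of each library. Nlrp3, the inflammasome sensor, had 26 UMIs in yap1 and 61 in WT (ratio 0.374, interval 0.227 to 0.601). S100a8 and S100a9, the subunits of calprotectin, were at 22.1 and 109.6 CPM and 24.3 and 94.5 CPM in yap1 and WT, with ratios of 0.202 (0.117 to 0.331) and 0.257 (0.152 to 0.419). Both are abundant in neutrophils, whose summed marker level in the members is given above, and its part in these values was not tested. In the opposite direction, Il1rn, the antagonist of the interleukin 1 receptor, had 56 UMIs in yap1 and 13 in WT (ratio 3.78, interval 2.04 to 7.53), and UMIs in 18.6% of yap1 and 7.14% of WT members, against 1.36% of yap1 and 1.48% of WT B cells (9.0% of yap1 and 2.73% of WT members and 0.741% of yap1 and 0.904% of WT B cells after thinning). Tgfb1, Cxcl16, Casp1, Ptgs2 and Ccl4 had intervals that include 1.

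These values were set beside other cells of the same libraries. Il1b had a ratio of 0.338 (0.307 to 0.371) in classical monocytes, 0.475 in macrophages, 0.937 in Kupffer cells and 0.524 in B cells, which should not make it and held 113 and 216 CPM in yap1 and WT. Cxcl2 had a ratio of 0.433 in B cells, with 93.1 and 215 CPM. RNA that is free in the suspension gives UMIs in every cell type, and its part in the values of nonclassical monocytes, which lie well above those of B cells, was not tested. Il1rn had ratios of 1.02 in classical monocytes and 0.601 in B cells. Without the members with dendritic cell markers the list's median log2 ratio was -0.61, and without the Kupffer-marked members -0.21. Without the members with dendritic cell markers, 7 of 14 were lower and 2 higher past 1.5-fold, beside 7.15% and 3.97% of all genes in all members. Il1b then stood at 0.549 (0.505 to 0.595) and Il1rn at 2.83 (1.47 to 5.80).

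Immediate early genes, which respond within minutes to stimuli and to cell dissociation, gave 5 higher and 13 lower of 18, with 0 and 5 past 1.5-fold and a median log2 ratio of -0.19. Among all genes 3.97% were higher and 7.15% lower past 1.5-fold, and 2362 of 4253 were lower at any size. Ier3 was at 60.8 CPM in yap1 and 165 CPM in WT (ratio 0.368, interval 0.264 to 0.508), Fosl2 at 116 CPM in yap1 and 203 CPM in WT (ratio 0.572, interval 0.443 to 0.736) and Dusp2, a phosphatase of MAP kinases, at 256 CPM in yap1 and 421 CPM in WT (ratio 0.609, interval 0.513 to 0.723). Fosb had a ratio of 0.563 (0.409 to 0.770) and Egr1 of 0.496 (0.326 to 0.745). Over the alternatives Egr1 lay between 0.342 and 0.907. Of the more abundant members, ratios were 1.12 for Dusp1, 0.945 for Junb, 0.991 for Zfp36 and 1.41 for Fos, which was 2.08 in B cells. The NF-kappaB feedback inhibitors Nfkbia and Nfkbiz were at 0.703 (0.646 to 0.765) and 0.698 (0.624 to 0.780), short of 1.5-fold. Heat shock genes gave 1 higher and 10 lower of 11, 3 of them past 1.5-fold, with a median log2 ratio of -0.17. They were led by Hsp90aa1, at 380.1 CPM in yap1 and 645 CPM in WT (ratio 0.589, interval 0.513 to 0.677), whose transcript end shares 40.9% of its words with other genes. The time from tissue to droplet is not given for either library, and its part in the values of both lists was not tested.

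Scavenger and lipid genes were lower in 11 of 16, beside 2362 of 4253 among all genes, with a median log2 ratio of -0.23. Of them 5 were lower and 0 higher past 1.5-fold, beside 7.15% and 3.97% of all genes. Apoe, apolipoprotein E, was at 2377 CPM in the yap1 library and 3893 CPM in the WT library (ratio 0.611, interval 0.578 to 0.645), Abca1, a cholesterol exporter, had 17 UMIs in yap1 and 33 in WT (ratio 0.452, interval 0.236 to 0.835), and Lpl, lipoprotein lipase, 23 UMIs in yap1 and 108 in WT (ratio 0.187, interval 0.114 to 0.295). Over the alternatives Lpl lay between 0.183 and 0.775. Without the 3 highest members of each library, Apoe stood at 0.764, and 36.4% of its WT UMIs lay in 3 cells. In B cells its ratio was 1.04, at 1073 and 1035 CPM. The other 2, Cd5l and Marco, scavenger receptor genes of Kupffer cells, had 0 UMIs in yap1 and 174 in WT and 8 UMIs in yap1 and 97 in WT, which makes Cd5l at least 66.1-fold lower. The 5 Kupffer-marked WT members held nearly all of these UMIs, and Marco's ratio was 0.422 without Kupffer-marked members. Without these, 2 of 13 genes of the list were past 1.5-fold lower, with a median log2 ratio of -0.16. Cd36, Pparg, Nr1h3 and Plin2 had intervals that include 1.

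Fc receptor and complement genes were lower in 12 of 14, 2 of them past 1.5-fold, with a median log2 ratio of -0.26. Among all genes in all members 2362 of 4253 were lower, and 7.15% were lower past 1.5-fold. Without the members with dendritic cell markers 10 of 14 were lower and 5 past 1.5-fold, with a median of -0.25, and without the Kupffer-marked members 1 was past 1.5-fold, with a median of -0.12. The 2 were C1qc, a chain of complement C1q, at 193 CPM in yap1 and 324 CPM in WT (ratio 0.597, interval 0.490 to 0.727), and Fcgr2b, the inhibitory Fc receptor, at 120.4 CPM in yap1 and 181 CPM in WT (ratio 0.664, interval 0.513 to 0.858). With barcodes thinned to 2000 UMIs before the rule, both turned, to 1.15 for C1qc and 1.16 for Fcgr2b. C1qa and C1qb had ratios of 0.742 (0.631 to 0.871) and 0.734 (0.643 to 0.837). Without the Kupffer-marked members C1qa, C1qb and C1qc stood at 0.954, 0.932 and 0.783, and without the members with dendritic cell markers at 0.522, 0.574 and 0.518. Lysosomal genes gave 7 higher and 11 lower of 18, with Ctsl (cathepsin L) as the only one past 1.5-fold, at 48.6 CPM in yap1 and 102 CPM in WT (ratio 0.477, interval 0.322 to 0.696). The cysteine protease inhibitor Cst3, the most abundant of them, was at 7175 CPM in yap1 and 5769 CPM in WT (ratio 1.24, interval 1.20 to 1.29). The lysosomal list summed to 18140 CPM in yap1 and 17540 in WT. Without the members with dendritic cell markers it summed to 17647 and 17764, and the order of the libraries turned.

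MHC class II genes were higher in 7 of 8, beside 1891 of 4253 among all genes, with 0 past 1.5-fold and a median log2 ratio of 0.27. Cd74, the invariant chain, was at 8899 CPM in the yap1 library and 6026 CPM in the WT library (ratio 1.48, interval 1.42 to 1.53), and H2-Eb1 at 3846 CPM in yap1 and 2592 CPM in WT (ratio 1.48, interval 1.40 to 1.57). The members with dendritic cell markers held 5038 of 8053 Cd74 UMIs in yap1 and 1930 of 4784 in WT. Without them Cd74 stood at 1.05 (0.997 to 1.10) and H2-Eb1 at 1.06 (0.966 to 1.15), H2-Aa at 0.861 (0.795 to 0.932) and H2-Ab1 at 0.764 (0.705 to 0.828). The list then gave 2 higher and 4 lower of 6, with a median log2 ratio of -0.19. The direction of the list's median, of H2-Aa and of H2-Ab1 thus turned with 15 yap1 and 11 WT cells, and that of Cd74 and H2-Eb1 did not.

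**Figure D4:**
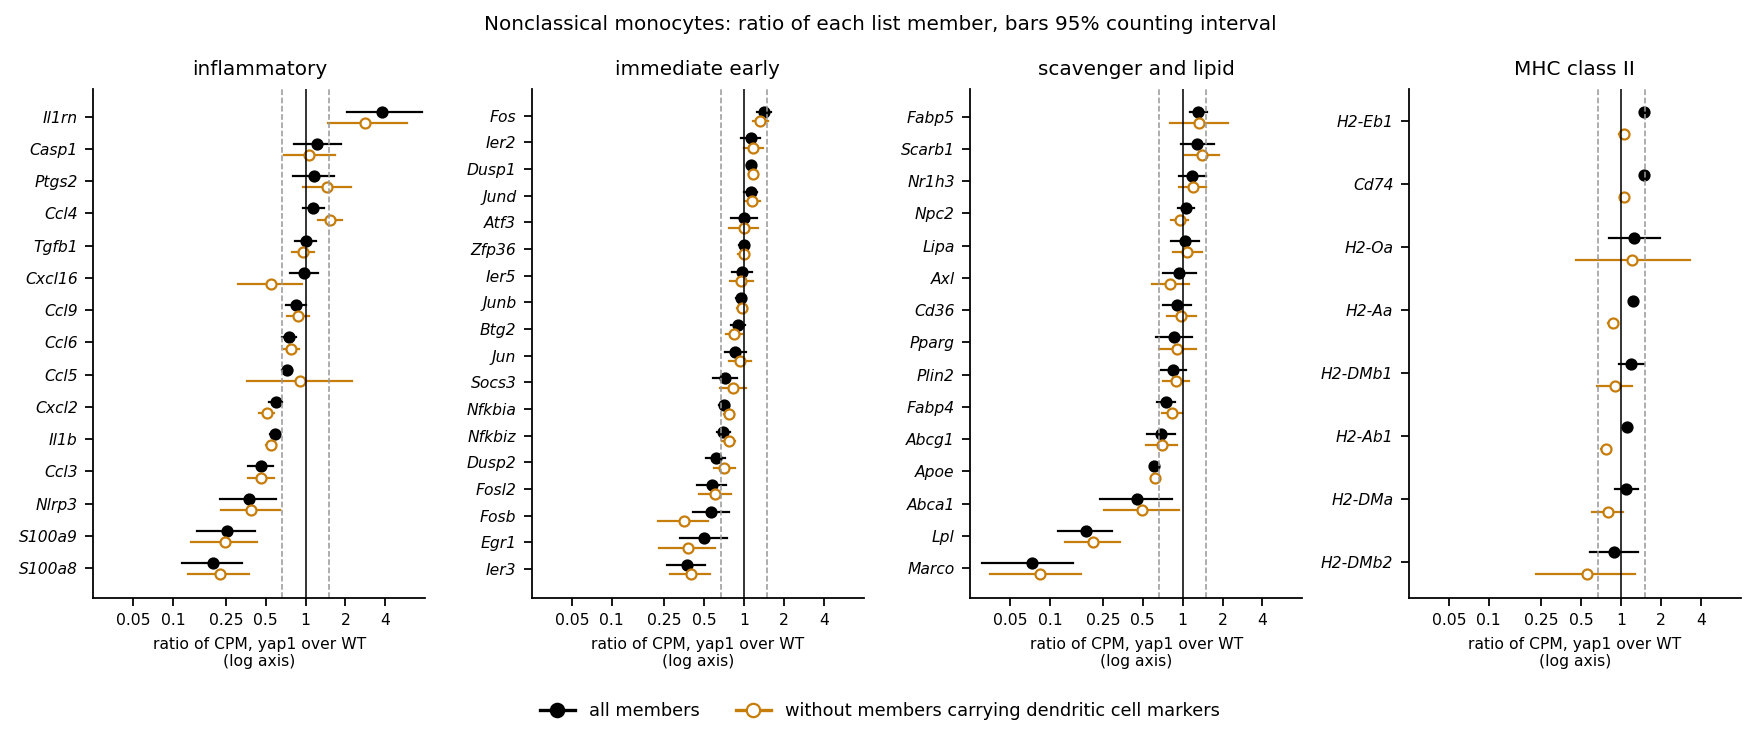
Ratio of CPM, yap1 over WT (log axis, bars 95% counting intervals), of the members of 4 gene lists with at least 50 UMIs over both sums, for all nonclassical monocytes (black) and without those with dendritic cell markers (orange); dashed lines mark 1.5-fold, and Cd5l, with 0 UMIs in yap1, is not drawn. Il1b, Cxcl2, Nlrp3, S100a8 and S100a9 lie left of 1 in both versions and Il1rn right of it, while H2-Aa and H2-Ab1 move from right to left of 1.

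Of the single genes higher in yap1 members, several were also higher in other cells of that library. Tmsb10, an actin-sequestering thymosin, was at 1581 CPM in yap1 and 896 CPM in WT (ratio 1.77, interval 1.61 to 1.93), with ratios of 1.61 in classical monocytes, 1.72 in macrophages and 1.37 in B cells. Atp5k, a subunit of ATP synthase, had a ratio of 1.89 (1.43 to 2.52) and was 1.87 in B cells, the glycolytic enzyme Eno1 1.63 (1.35 to 1.96) and 1.67, Mt1 (metallothionein) 1.77 (1.40 to 2.25) and 2.33, and Pot1b, a telomere protein, 2.94 (1.88 to 4.74) and 2.11. Ifitm6, an interferon-inducible membrane protein gene, was at 269.6 CPM in yap1 and 127 CPM in WT (ratio 2.12, interval 1.67 to 2.70), 3.0 in classical monocytes and 5.30 in B cells. Sec61g, a translocon subunit, had ratios of 1.80 (1.51 to 2.16) and 1.27. On the other side, Wdr89 (ratio 0.0982, interval 0.0734 to 0.129) and Nme2 (ratio 0.133, interval 0.0717 to 0.230) were lower in every population, at 0.109 and 0.104 in B cells. Nme2, a nucleoside diphosphate kinase, shares 98.9% of the words at its transcript end with other genes, so its UMIs are uncertain. These genes thus differed between the 2 libraries in B cells as well as in monocytes.

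Other genes were further from 1 in nonclassical monocytes than in B cells, though the difference between populations was not tested. Ly6a (Sca-1), a membrane protein induced by interferon, was at 129 CPM in yap1 and 46.6 CPM in WT (ratio 2.77, interval 1.90 to 4.13), 5.90 in classical monocytes and 0.848 in B cells. It stood at 1.99 without the members with dendritic cell markers, 1.77 without the 3 highest members of each library, and 0.951 when 3 marker UMIs sufficed for membership. Psmd13, a proteasome subunit, had a ratio of 1.89 (1.37 to 2.64), with 0.862 in classical monocytes and 0.995 in B cells, and the glycolytic enzyme Pgam1 1.65 (1.34 to 2.03), with 1.25 and 1.07. Fn1 had a ratio of 2.02 (1.42 to 2.90), but 94.4% of its yap1 UMIs lay in 3 cells, and it was 0.324 without the 3 highest. All 103 yap1 UMIs of Zmynd15 (2.32) lay in members with dendritic cell markers. Fkbp5, a cochaperone induced by glucocorticoids, was lower, at 49.7 CPM in yap1 and 149 CPM in WT (ratio 0.335, interval 0.232 to 0.475), with 0.619 in classical monocytes and 0.744 in B cells. Lilrb4a, an inhibitory receptor whose transcript end shares 99.7% of its words with other genes, was at 0.420 (0.327 to 0.536). Ifitm1, an interferon-inducible membrane protein gene, had a ratio of 0.292 (0.200 to 0.420), and 0.821 (0.423 to 1.58) without the members with dendritic cell markers, and 3.32 with barcodes thinned to 2000 UMIs before the rule.

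**Figure D5:**
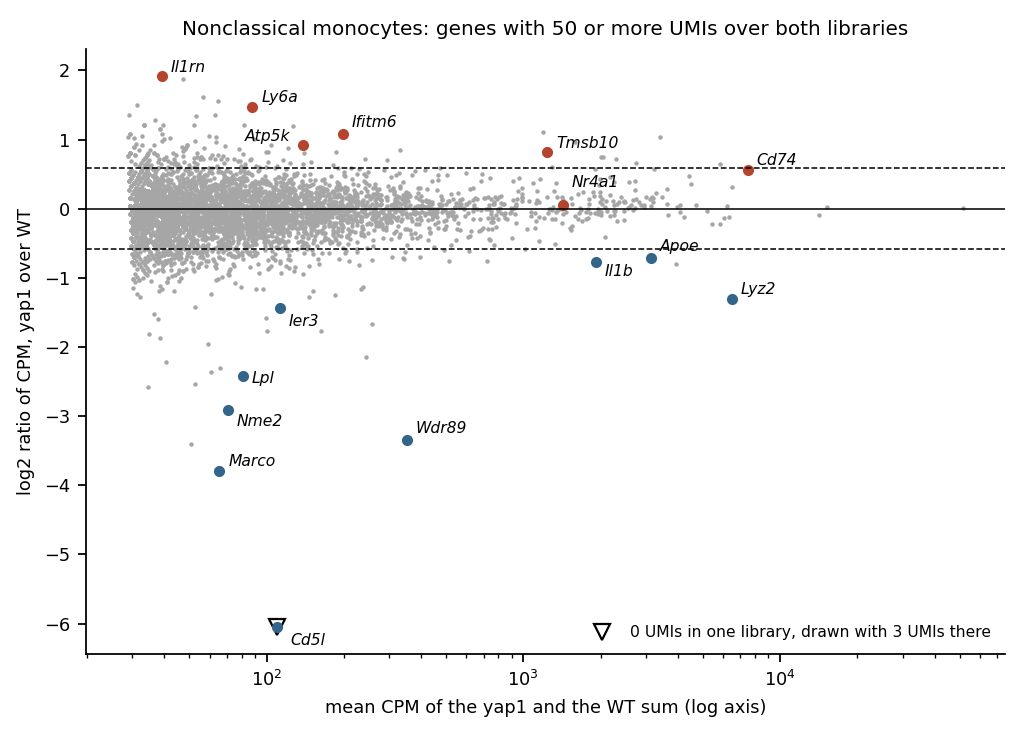
Log2 ratio of CPM, yap1 over WT (y axis), against the mean CPM of the 2 sums (log axis) for 4253 genes in nonclassical monocytes, each point a gene; dashed lines mark 1.5-fold and Cd5l is drawn with 3 UMIs in yap1. Lyz2, Il1b and Apoe lie below the lower line among the abundant genes, Nr4a1 lies near 0, and 304 genes lie below and 169 above the lines.

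Growth and survival genes gave 7 higher and 8 lower of 15, with 1 and 2 past 1.5-fold. Among all genes 1891 of 4253 were higher and 2362 lower, and 3.97% were higher and 7.15% lower past 1.5-fold. The antiapoptotic gene Bcl2 was at 120.4 CPM in yap1 and 79.4 CPM in WT (ratio 1.52, interval 1.10 to 2.10), and the proapoptotic Bcl2l11 (BIM) had 22 UMIs in yap1 and 43 in WT (ratio 0.449, interval 0.256 to 0.767). Over the alternatives Bcl2l11 lay between 0.335 and 0.775. Cflar, an inhibitor of caspase-8 signalling, was at 128 CPM in yap1 and 200.3 CPM in WT (ratio 0.640, interval 0.499 to 0.818), and Mcl1, the most abundant antiapoptotic gene of the list, at 816 CPM in yap1 and 907 CPM in WT (ratio 0.899, interval 0.810 to 0.998). In B cells Bcl2 and Bcl2l11 had ratios of 1.08 and 0.939. Glycolytic and hypoxia genes gave 7 higher and 6 lower of 13. Past 1.5-fold higher were 3, Pgam1, Eno1 and Pgk1, beside 3.97% of all genes. Pgk1 had 38 UMIs in yap1 and 22 in WT (ratio 1.52, interval 0.874 to 2.69) and stood at 0.861 with barcodes thinned to 2000 UMIs. Gapdh, Aldoa and Pkm had ratios of 0.998, 0.952 and 0.962. Interferon-stimulated genes gave 5 higher and 6 lower of 11, with 1 and 1 past 1.5-fold. These were Gbp2, higher (ratio 2.32, interval 1.44 to 3.83), and Rsad2, lower (ratio 0.274, interval 0.143 to 0.498), though Rsad2 stood at 2.21 with barcodes thinned to 2000 UMIs. Genes of Toll-like receptor and nucleic acid sensing gave 6 higher and 5 lower of 11, with 0 and 1 past 1.5-fold. Tlr2, the receptor for bacterial lipoproteins, was at 89.5 CPM in yap1 and 168 CPM in WT (ratio 0.534, interval 0.400 to 0.710), and its ratio was 1.09 with members thinned to 1000 UMIs.

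Targets of YAP and TEAD offered little to compare. Of 18 listed, 5 reached 50 UMIs, all 5 were lower in yap1, and 1 was past 1.5-fold, with a median log2 ratio of -0.20. That gene was Gadd45b, a stress-inducible gene, at 119 CPM in yap1 and 198 CPM in WT (ratio 0.603, interval 0.468 to 0.776), which stood at 1.16 with barcodes thinned to 2000 UMIs before the rule. Without the members with dendritic cell markers the YAP and TEAD list gave 1 higher and 3 lower of 4, with a median log2 ratio of -0.27. Among all genes in all members, 2362 of 4253 were lower, and 7.15% were lower past 1.5-fold. The classical targets Ctgf, Cyr61, Ankrd1 and Amotl2 had 0 UMIs in both libraries, as had Tead1, Tead3 and Tead4. Hippo pathway genes gave 1 higher and 7 lower of 8, with Taok1, a kinase upstream of the pathway, at 86.2 CPM in yap1 and 152 CPM in WT (ratio 0.566, interval 0.420 to 0.758) and Vgll4, a TEAD cofactor, at 0.570 (0.334 to 0.958) past 1.5-fold. Without the members with dendritic cell markers the Hippo list gave 4 higher and 4 lower of 8, with a median log2 ratio of 0.0029, against -0.14 with them. Lats2 and Stk4 (MST1) had ratios of 0.892 and 1.18. The 5 dopamine receptor genes, among them Drd2, on which the title of the study centres, had 0 UMIs in the members of both libraries, which allows up to 3.32 CPM in yap1 and 3.78 CPM in WT for each.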

How the data were processed

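The data are 2 droplet single-cell RNA libraries, 1 per genotype. The deposited values are raw UMI counts per gene and barcode, not normalized. The submitters' processing notes name mm10, Bowtie 0.12.2 and Seurat with no role. The counting program, annotation, strand and selection of barcodes are not given in the sources used here.

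Counts were summed over the cells of a population and library and scaled to CPM in python 3.11.15 with scipy 1.17.1, numpy 2.4.6 and pandas 2.3.3, and Scrublet was run through scanpy 1.11.5. Intervals are exact Poisson (levels), Clopper-Pearson (shares) and exact conditional binomial (ratios), at 95%. Since each genotype has 1 library, no test was made. The ratio and interval computations were tested on simulated data. Classical monocytes needed a limit of 2 UMIs of markers of other cell types, added after the mirrored rule alone gave 152 yap1 and 242 WT cells, of which 71 and 113 held Siglech, a plasmacytoid dendritic cell gene. Scrublet's automatic threshold marked 0.141% of yap1 and 0.0818% of WT barcodes and so did not work; leaving out the 4% with the highest scores was an alternative, and no doublets were removed otherwise.

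The members and 32 gene lists were chosen with earlier results of these data known. Named genes are 13 set by name, the 12 highest and 12 lowest in yap1 over WT by the interval bound nearest to 1 (at least 100 UMIs), the 15 highest and 10 lowest over classical monocytes, and up to 3 of each list by size; the ranked choices skipped predicted genes, the rule genes, hepatocyte and sex-linked genes, and those for immunoglobulins, hemoglobins, ribosomal proteins and mitochondrial transcripts. Other genes in the text are list members or were chosen after their values were seen. Gene positions are from GENCODE M21 (mm10), which held 27645 of 27998 gene IDs. Shared transcript ends were measured as 50-base words of the last 500 bases. Alternatives covered cell filters, marker thresholds, doublets, other cell types, depth, scaling, weighting and gene minimum; others, on dendritic and Kupffer cell markers, marker number, the classical rule and the 3 highest cells per gene in nonclassical and classical monocytes, were chosen after seeing the data.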

Additional observations from a re-analysis of the deposited data

Results flagged for a closer look

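For 3 genes the yap1 over WT ratio pointed one way in nonclassical monocytes and the other way in classical monocytes, with counting intervals on opposite sides of 1. S100a9, a calprotectin subunit, had a ratio of 0.257 (0.152 to 0.419) in nonclassical monocytes and 2.63 (2.08 to 3.33) in classical monocytes, where 90.7% of its 227 yap1 UMIs lay in 3 cells, 184 of them in 1 cell. Without the 3 highest classical monocytes of each library, 21 yap1 and 50 WT UMIs remained and the classical ratio was 0.549 (0.313 to 0.930), on the same side of 1 as in nonclassical monocytes. Fosb, an immediate early gene, had a ratio of 0.563 (0.409 to 0.770) in nonclassical monocytes and 1.88 (1.28 to 2.78) in classical monocytes, and there 2.13 (1.31 to 3.50) without the 3 highest cells. Lpl, lipoprotein lipase, had a ratio of 0.187 (0.114 to 0.295) in nonclassical monocytes and 3.23 (2.23 to 4.75) in classical monocytes, where 74.3% of its 105 yap1 UMIs lay in 3 cells. Without the 3 highest classical monocytes of each library that ratio was 1.21 (0.684 to 2.12). In nonclassical monocytes the Lpl ratio lay between 0.183 and 0.775 over the alternatives. These values without the highest cells were chosen after seeing the data. With 1 library per genotype, the difference between the populations was not tested.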

How the results depend on the processing

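No paired analysis was possible because each genotype has 1 library, and for the same reason no replicate could be left out. The share of nonclassical monocytes, yap1 over WT, stayed between 0.970 and 1.12 over 10 alternatives. Counts of genes past 1.5-fold moved with depth and the gene minimum, and are given in the order higher in yap1, lower in yap1, higher than classical, lower than classical. They were 62, 79, 223 and 162 with barcodes thinned to 2000 UMIs before the rule, where nonclassical per classical monocyte was 0.889. They were 36, 45, 75 and 48 with members thinned to 1000 UMIs, 66, 122, 340 and 206 with a gene minimum of 100 UMIs, and 1532, 1775, 1314 and 821 with a minimum of 1 UMI in each sum. Fewer UMIs leave fewer genes to compare. With classical monocytes by the mirrored rule alone, 827 genes were lower than classical. Of the named ratios of nonclassical over classical monocytes, 42 of 62 moved with that rule, 35 with barcodes thinned to 2000 UMIs, 28 with members thinned to 1000 and 13 without members with dendritic cell markers. Fewer of these ratios could be computed after thinning. Single genes that turned are given as log2 ratios, yap1 over WT unless named, and the cause was not tested. With 3 marker UMIs, Ly6a was at -0.073, Lrg1 at -1.44 and Lyz1 over classical in yap1 at 0.33. Without barcodes with markers of other types, Rsad2 was at 1.13. With barcodes thinned to 2000 UMIs, Hspd1 was at 0.37, Fcgr2b 0.21, Pgk1 -0.22, C1qc 0.21, Hsph1 0.28, Ifitm1 1.73, Gadd45b 0.21 and Rsad2 1.15, and Ccl5 over classical at -0.42 in yap1 and -0.62 in WT. With members thinned to 1000, Pgk1 was at -1.20 and Tlr2 at 0.12. Of the alternatives chosen after seeing the data, Ccl5 over classical was at -0.96 in WT without members with dendritic cell markers and -0.079 in yap1 with the mirrored rule alone, Zmynd15 was at -0.43 with at least 2 markers, and Fn1 at -1.62 without the 3 highest cells.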

Other observations

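A subset of nonclassical monocytes, chosen after seeing the data as members with at least 3 UMIs of the complement genes C1qa, C1qb and C1qc, differed from the rest in the same direction in both libraries. It held 18 yap1 and 24 WT members, among them both Kupffer-marked yap1 members and 3 of the 5 Kupffer-marked WT ones, and 2 yap1 and 0 WT members with dendritic cell markers. Its median of nonclassical UMIs per 10000 was lower, at 118 in yap1 and 88.8 in WT, against 146 and 141 in the other members. Fcgr4 stood at 1925 CPM in yap1 and 1915 CPM in WT in these cells, against 632 CPM in yap1 and 629 CPM in WT in the other members. Cd300e stood at 631 CPM in yap1 and 501 CPM in WT, against 396 CPM in yap1 and 382 CPM in WT. Spn ran the other way, at 205 CPM in yap1 and 175 CPM in WT against 448 CPM in yap1 and 456 CPM in WT, as did the rule marker Ace, at 147 CPM in yap1 and 105 CPM in WT against 502 CPM in yap1 and 451 CPM in WT. Without members with dendritic or Kupffer cell markers, 14 yap1 and 21 WT C1q-carrying members remained. Among these, Fcgr4 stood at 2407 CPM in yap1 and 2128 CPM in WT, against 809 CPM in yap1 and 773 CPM in WT in those without C1q, Cd300e at 840 and 536 CPM against 526 and 474 CPM, and Spn at 278 and 204 CPM against 573 and 550.1 CPM. The C1q-carrying members as a whole were deeper, with median UMIs of 9820.5 and 7273 in yap1 and WT, against 6985 and 5776 in the others. Fcgr4 in Gpnmb- and Trem2-positive macrophages was 288 and 446 CPM in yap1 and WT, and in Clec4f-positive Kupffer cells 283 and 336 CPM. The part of depth in these values was not tested.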
